A study of Mus musculus with 12 samples.

Results

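Gene expression in liver tissue without tumour was compared between 2 mouse strains, LiKM and LiK, that both ate a normal diet without drug. The comparison sets 3 LiKM mice (normal diet 1 to 3) against 3 LiK mice (normal diet 1 to 3), which are 6 of the 12 samples of the series. All were male and 4 months old. The other 6 mice of the series, 3 of each strain, received a diet with 0.06% ACR, an acyclic retinoid studied against liver cancer, from 5 weeks of age. They give the values of the same genes in separate animals. They also enter the gene filter and the estimate of spread behind the normal diet calls. With only the 6 normal diet libraries 2021 genes were called, against 3031 with all 12. Beyond the labels, and from knowledge of the mouse lines, albumin-driven Cre recombinase acts in the hepatocytes of both strains, and LiKM mice differ from LiK mice by the loss of Mdm2 in those cells. The recombination is thus meant to be restricted to albumin-expressing cells and their progeny, while the RNA came from whole tissue with all its cell types.

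Mdm2 is the ubiquitin ligase that keeps the tumour suppressor p53 at a low level, and its loss lets p53 accumulate and act as a transcription factor for genes of growth arrest and cell death. When hepatocytes are damaged over long times, the liver is known to respond with a ductular reaction, an expansion of cells with the features of bile duct epithelium and of hepatic progenitors, together with inflammation and matrix deposition. Duct epithelium, progenitor signals, p53 targets, matrix, immune cells and the functions of mature hepatocytes are described in that order.

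The 6 libraries held 10124813 (LiKM mouse 3) to 18647156 counts (LiK mouse 2). The first principal component (62.1% of variance) separated LiK from LiKM mice, with LiK mice at -55 to -36.9 and LiKM mice at 41 to 57.3. On the second component, 14.2% of the variance, LiKM mouse 3 stood at 41.1 and LiKM mouse 1 at -31.5. Albumin, the secreted protein that marks hepatocytes, took 8.01 to 10.87% of counts in LiK mice and 8.15 to 8.28% in LiKM mice. Of 21 markers of pancreas, fat, muscle and mesothelium 5 had enough counts to be tested. Their summed level was 20.3 to 33.9 CPM in the LiK mice and 18.6 to 42.9 CPM in the LiKM mice. The targeted gene Mdm2, counted over the whole gene so that lost exons alone would not show, had 24.1, 23.4 and 25.8 CPM in LiK and 35, 30.4 and 29 CPM in LiKM mice. Its counts therefore do not check the labels. It gave no call (log2 fold change 0.37, SE 0.21, edgeR adjusted p = 0.222). It is itself a p53 target. The identifiers of LiK mice 2 and 3 begin with MP and those of the other 4 mice with KM, and no source used here says what the prefixes mark. With the prefix as a term over all 12 libraries 3148 genes were called, among them 2412 (79.6%) of the 3031 called without it.

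Of 13880 genes with enough counts, 3031 (21.8%) passed on the normal diet by the quasi-likelihood test of edgeR at an adjusted p of 0.05 (Benjamini-Hochberg). Of these, 1836 (13.2% of the tested genes) were higher in LiKM and 1195 (8.61%) were lower, so 60.6% of the called genes were higher. With library size alone in place of TMM scaling, 97.6% of called genes were higher, and with upper quartile factors 77.6%. Library size alone moved the median change over all tested genes from 0.02 to 0.40 on the log2 scale and upper quartile factors moved it to 0.12. Levels of all genes below are CPM, counts scaled by library size and TMM factor, and changes are relative to that scaling. The count of called genes fell to 1658 without LiK mouse 1 and 1862 without LiK mouse 3. In 2876 tested genes (20.7%) the CPM of every LiKM mouse lay above that of every LiK mouse, and in 2696 (19.4%) below. Groups did not overlap in 1793 of the 1836 genes called higher and 1187 of the 1195 called lower. A lack of overlap in a called gene therefore adds little to its call. In bulk tissue, fewer cells of a type and less RNA per cell cannot be told apart, and this applies to every level below.

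The genes that rose and those that fell lay at different expression levels. Of the 4816 genes with a mean of 1 to 10 CPM, 1097 (22.8%) rose and 60 (1.2%) fell, with a median log2 fold change of 0.31. Of the 1156 genes between 100 and 1000 CPM, 21 (1.8%) rose and 394 (34.1%) fell, with a median of -0.34. Above 1000 CPM, where the main secreted and metabolic products of hepatocytes are found, 0 of 120 genes rose and 36 (30%) fell. Rises were also the larger changes. A difference of at least 2-fold was found for 1375 genes that rose (9.91% of tested genes) and 101 that fell (0.728%). At least 4-fold differences numbered 578 rises and 8 falls, and 117 genes rose at least 16-fold.

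**Figure D1:**
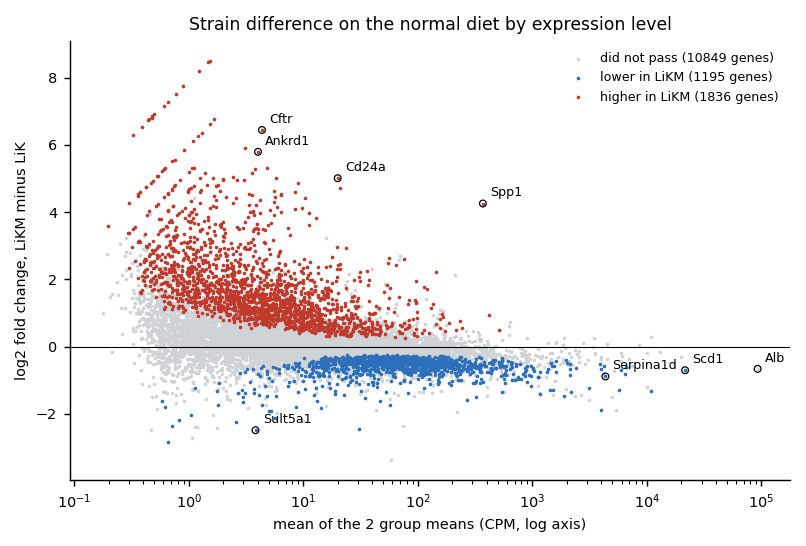
Each point is 1 of the 13880 tested genes, placed by the mean of the 2 group means (x axis, CPM, log axis) and by the log2 fold change of LiKM over LiK on the normal diet (y axis), with calls by edgeR at an adjusted p of 0.05. The 1836 genes that passed as higher (red) spread up to the left, where rows of points are genes with few or no LiK counts whose fitted change depends on the prior count, and the 1195 that passed as lower (blue) lie close under 0 and reach the most abundant genes, while Alb (grey) did not pass.

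Some genes went from near absence to clear detection. In 74 genes that rose, the 3 LiK libraries together held at most 3 counts, and 14 of these had 0. Tesc (chromosome 5, 118027743 to 118061878; positions are whole gene spans in the GENCODE annotation of mouse assembly GRCm38, which mm10 names), which encodes the calcium-binding protein tescalcin, had 0 counts in LiK mice and 131 in LiKM mice, at least 44-fold higher when the LiK group is set at 3 counts, the limit that 0 allows. Scube3 (chromosome 17, 28142141 to 28174854), a secreted protein with EGF-like domains, had 0 and 126 counts, at least 42.3-fold higher. Sctr (chromosome 1, 120006894 to 120063536), the secretin receptor through which cholangiocytes are stimulated to secrete bicarbonate, had 0 and 106 counts, at least 35.6-fold higher. The intestinal-type cadherin Cdh17 had 1 count in LiK mice and 149 in LiKM mice, a ratio of 150 with a 95% exact counting interval of 26.5 to 5971. For the cadherin Cdh6 the counts were 1 and 134 (ratio 135, interval 23.8 to 5373). The germ cell gene Asz1 had 1 and 114 (ratio 115, interval 20.2 to 4577). These limits and intervals cover counting error only. Each of these genes was counted in all 3 LiKM mice.

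Duct epithelial genes were higher in LiKM livers, from transcription factors to ion channels. Of 17 tested biliary and progenitor transcription factors 10 rose and 0 fell, with a median log2 fold change of 1.19. Of 16 surface proteins of progenitor and ductular cells 13 rose and 1 fell (median 2.59). Of 52 keratins 6 had enough counts to be tested, and 5 of these rose (median 2.11). Of 20 bile duct channels and transporters 13 rose and 1 fell (median 1.37). A gene near 0 in LiK mice can enter the test through its LiKM level alone, which favours rises among the tested members of any list of scarce genes. Over all tested genes 13.2% rose and the median was 0.02.

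Among the transcription factors, the epithelial ETS factor Ehf (chromosome 2, 103263433 to 103303278) had 0.634, 0.509 and 0.419 CPM in LiK and 11.3, 12.7 and 12.5 CPM in LiKM mice (log2 fold change 4.52, SE 0.30, 22.9-fold higher, edgeR adjusted p = 3.01e-05). Grhl2, a grainyhead factor that maintains epithelial junctions, had 0.0704, 0.113 and 0 CPM in LiK and 2.34, 2.47 and 3.34 CPM in LiKM mice, with 3 counts in all LiK mice and 116 in LiKM mice (ratio 39, counting interval 13 to 192). Sox9, the classical marker of biliary fate, had 3.52, 5.32 and 4.27 CPM in LiK and 18.4, 20.1 and 29.3 CPM in LiKM mice (log2 fold change 2.36, SE 0.30, 5.12-fold higher, edgeR adjusted p = 0.000613). In each of these genes every LiKM mouse lay above every LiK mouse. Sox4, which acts with Sox9 in duct formation, had 0.423, 0.849 and 0.921 CPM in LiK and 9.66, 9.51 and 7.87 CPM in LiKM mice (12.2-fold higher). Glis3, a zinc finger factor whose loss is known to cause cystic disease, had 0.352, 0.962 and 0.335 CPM in LiK and 8.4, 9.58 and 11.4 CPM in LiKM mice (16.7-fold higher). Their groups did not overlap either. Of the members that did not pass, Hes1, a Notch target, had 3.8, 12.6 and 8.37 CPM in LiK and 10.7, 8.95 and 37.6 CPM in LiKM mice, with LiKM mouse 3 highest, and Tbx3 had 8.38, 41.1 and 14.6 CPM in LiK and 17.2, 9.09 and 6.05 CPM in LiKM mice, with the highest value in LiK mouse 2.

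The surface protein Cd24a had 1.06, 1.47 and 1 CPM in LiK and 32.5, 43.3 and 40.5 CPM in LiKM mice (log2 fold change 5.01, SE 0.43, 32.1-fold higher, edgeR adjusted p = 9.88e-05). The epithelial adhesion molecule Epcam had 0.775, 0.679 and 0.502 CPM in LiK and 14, 12.5 and 22.4 CPM in LiKM mice (log2 fold change 4.61, SE 0.52, 24.4-fold higher, edgeR adjusted p = 0.000319). Prominin 1 (Prom1), a progenitor marker, had 0.845, 0.509 and 0.754 CPM in LiK and 14.1, 9.37 and 7.72 CPM in LiKM mice (log2 fold change 3.90, SE 0.41, 14.9-fold higher, edgeR adjusted p = 0.0002). In Cd24a, Epcam and Prom1 all LiKM mice lay far above all LiK mice. The membrane protease matriptase (St14) was 23-fold higher, with 0.493, 0.509 and 0.586 CPM in LiK and 11.4, 11.8 and 13.8 CPM in LiKM mice. The tetraspanin Tspan8 was 32.2-fold higher, with 0.634, 0.283 and 0.0837 CPM in LiK and 15.8, 9.51 and 8.35 CPM in LiKM mice. The member that fell was Lgr4, a receptor for R-spondins that hepatocytes express, with 64.3, 62.4 and 69.1 CPM in LiK and 35.9, 48.3 and 47.6 CPM in LiKM mice (log2 fold change -0.57, SE 0.13, 1.49-fold lower, edgeR adjusted p = 0.011).

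The biliary keratin pair Krt7 and Krt19 rose from very low levels and the general epithelial pair Krt8 and Krt18, which hepatocytes also express, rose from high levels. Krt7 had 0.0704, 0.396 and 0.167 CPM in LiK and 4.32, 4.65 and 5.81 CPM in LiKM mice (log2 fold change 4.404, SE 0.48, 21.2-fold higher, edgeR adjusted p = 0.000241). Krt19 had 0.352, 0.566 and 0.67 CPM in LiK and 11.5, 8.88 and 11.1 CPM in LiKM mice, 19.6-fold higher. Krt8 had 117, 111 and 104 CPM in LiK and 231, 183 and 232 CPM in LiKM mice (log2 fold change 0.96, SE 0.19, 1.95-fold higher, edgeR adjusted p = 0.00554). Krt18 had 79, 70.7 and 92.6 CPM in LiK and 182, 128 and 224 CPM in LiKM mice (log2 fold change 1.14, SE 0.26, 2.21-fold higher, edgeR adjusted p = 0.0109). The stress keratin Krt23 was 8.44-fold higher, with 1.27, 0.453 and 1.26 CPM in LiK and 7.2, 6.83 and 10.6 CPM in LiKM mice.

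Junction genes of simple epithelium rose in part. Of 27 tested, 11 rose and 2 fell (median 0.51), against 13.2% and 8.61% of all tested genes, so the share of falls was near that of all genes. One of the falls, of the splicing factor Esrp2, turned to a log2 fold change of 0.12 with library size alone, and its call ended when any 1 of 9 of the 12 libraries was left out. Claudin 7 (Cldn7) had 0.211, 0.0566 and 0.335 CPM in LiK and 5.88, 6.2 and 8.83 CPM in LiKM mice (log2 fold change 5.16, SE 0.62, 35.8-fold higher, edgeR adjusted p = 0.000437). The splicing factor Esrp1, which sets epithelial isoforms, had 0, 0.113 and 0 CPM in LiK and 2.28, 1.69 and 2.39 CPM in LiKM mice, and its counts were 2 in LiK and 92 in LiKM mice (ratio 46.4, interval 12.5 to 389). The adaptor subunit Ap1m2, which sorts proteins to the basolateral membrane, had 0, 0.0566 and 0.335 CPM in LiK and 1.8, 1.34 and 2.47 CPM in LiKM mice (log2 fold change 3.90, SE 0.69, 14.9-fold higher, edgeR adjusted p = 0.0032). Claudin 12 (Cldn12) went the other way with 104, 96.4 and 104 CPM in LiK and 60.9, 79 and 71.9 CPM in LiKM mice (log2 fold change -0.52, SE 0.11, 1.44-fold lower, edgeR adjusted p = 0.00743). Its groups did not overlap.

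The machinery of bile secretion by ducts was higher as well. The chloride channel Cftr (chromosome 6, 18170687 to 18322768) had 0.211, 0.0566 and 0 CPM in LiK and 10.9, 9.3 and 5.65 CPM in LiKM mice (log2 fold change 6.44, SE 0.60, 86.8-fold higher, edgeR adjusted p = 9.88e-05), so it was detected in 2 of 3 LiK mice and in all LiKM mice. The sodium-glucose transporter Slc5a1, which reclaims glucose from bile, had 1.27, 1.08 and 0.754 CPM in LiK and 16.1, 16.6 and 22.2 CPM in LiKM mice (log2 fold change 4.12, SE 0.36, 17.4-fold higher, edgeR adjusted p = 9.26e-05). Itpr3, the calcium release channel at the apical pole of cholangiocytes, had 3.66, 2.83 and 2.93 CPM in LiK and 10.1, 11.6 and 11.5 CPM in LiKM mice (log2 fold change 1.82, SE 0.20, 3.52-fold higher, edgeR adjusted p = 0.000241). The polycystic disease genes Pkhd1 and Pkd2, whose products sit in the cilium of cholangiocytes, also rose. Pkhd1 had 6.62, 4.87 and 8.04 CPM in LiK and 29.6, 36 and 40.01 CPM in LiKM mice and was 5.44-fold higher, and Pkd2 had 21.5, 20.3 and 20.5 CPM in LiK and 37.1, 41.3 and 37.1 CPM in LiKM mice and was 1.86-fold higher. The sodium channel subunit Scnn1a fell, with 18.1, 27.8 and 25.5 CPM in LiK and 8.88, 13.8 and 7.64 CPM in LiKM mice (log2 fold change -1.24, SE 0.28, 2.35-fold lower, edgeR adjusted p = 0.0106). The bicarbonate exchanger Slc4a2 did not pass the test, with 39.5, 38.8 and 46.6 CPM in LiK and 33.4, 39.4 and 37.3 CPM in LiKM mice.

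Mucin and cilium genes followed in part. Muc1 had 0.845, 0.622 and 0.335 CPM in LiK and 8.94, 6.9 and 5.65 CPM in LiKM mice (log2 fold change 3.54, SE 0.44, 11.6-fold higher, edgeR adjusted p = 0.000493). Osteopontin (Spp1), a secreted glycoprotein of ducts and activated macrophages, had 46.4, 35.6 and 28.6 CPM in LiK and 507, 675 and 927 CPM in LiKM mice (log2 fold change 4.25, SE 0.62, 19.1-fold higher, edgeR adjusted p = 0.00152). Its groups lay far apart, since even the lowest LiKM mouse was well above the highest LiK mouse. Foxj1, the master factor of motile cilia, had 0.282, 0.17 and 0.0837 CPM in LiK and 6.84, 6.55 and 8.91 CPM in LiKM mice (log2 fold change 5.29, SE 0.56, 39-fold higher, edgeR adjusted p = 0.000214). Of 40 cilium and axoneme genes 11 rose and 0 fell (median 0.52). The rises numbered 6 without LiK mouse 1 or LiK mouse 3. The intraflagellar transport gene Ift57 had 0.704, 0.736 and 0.586 CPM in LiK and 2.46, 4.16 and 4.22 CPM in LiKM mice (log2 fold change 2.39, SE 0.46, 5.23-fold higher, edgeR adjusted p = 0.00512). Ift122 had 3.1, 3.4 and 3.52 CPM in LiK and 7.68, 6.55 and 7.16 CPM in LiKM mice (log2 fold change 1.09, SE 0.18, 2.14-fold higher, edgeR adjusted p = 0.00232). The cilium factors Rfx2, with 0.634, 0.792 and 0.586 CPM in LiK and 0.84, 1.62 and 1.43 CPM in LiKM mice, and Rfx3, with 4.79, 4.07 and 4.1 CPM in LiK and 4.2, 3.8 and 5.97 CPM in LiKM mice, did not pass.

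**Figure D2:**
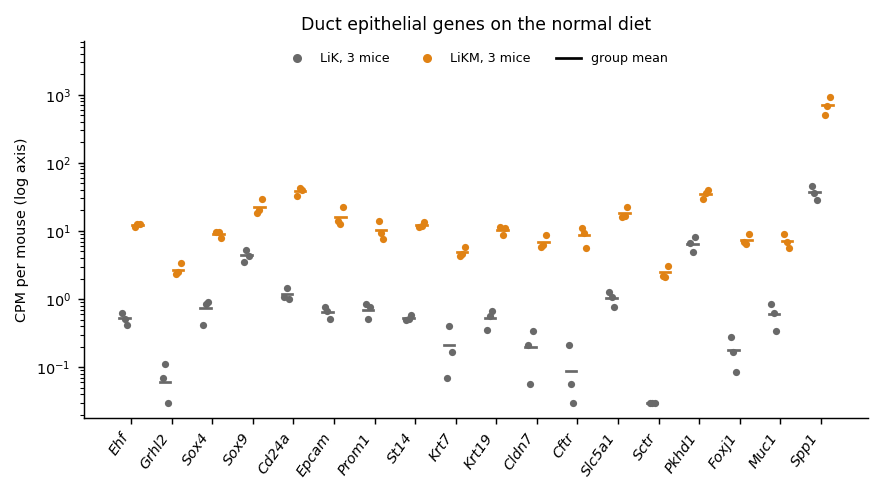
CPM of 18 duct epithelial genes in each mouse (y axis, log axis; points are mice, short lines group means; values of 0, as for Sctr in all LiK mice, are drawn at the lowest position). In all 18 genes, picked among those called higher, the 3 LiKM mice lie above the 3 LiK mice, as in 1793 of all 1836 such genes. Spp1 has the highest level of those drawn.

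Growth factor and receptor genes rose in part. Of 35 receptor tyrosine kinases and growth factors outside the EGF family 12 rose and 3 fell (median 0.58). Of all tested genes 13.2% rose and 8.61% fell, so the share of falls was near that of all genes. The lower count was 1 without LiK mouse 3. Ddr1 (chromosome 17, 35681567 to 35704621), a collagen receptor of epithelia, had 1.2, 2.32 and 1.42 CPM in LiK and 19.8, 25.7 and 26.6 CPM in LiKM mice (log2 fold change 3.83, SE 0.27, 14.2-fold higher, edgeR adjusted p = 3.01e-05). The platelet-derived growth factor genes Pdgfb, Pdgfc and Pdgfd, ligands that act on stellate cells, rose together. Pdgfb had 0.704, 1.58 and 1.09 CPM in LiK and 6.3, 6.55 and 8.59 CPM in LiKM mice and was 6.2-fold higher. Pdgfd had 0.634, 0.849 and 1.09 CPM in LiK and 4.08, 5.07 and 5.01 CPM in LiKM mice and was 5.5-fold higher, and Pdgfc was 3.96-fold higher. The IGF receptor Igf1r, which adult hepatocytes hardly express, had 1.76, 2.49 and 2.51 CPM in LiK and 7.2, 8.52 and 8.59 CPM in LiKM mice (log2 fold change 1.84, SE 0.27, 3.58-fold higher, edgeR adjusted p = 0.00125). The FGF co-receptor Klb of hepatocytes fell, with 30.01, 34.8 and 34.3 CPM in LiK and 18.1, 26.1 and 23.2 CPM in LiKM mice (log2 fold change -0.56, SE 0.13, 1.47-fold lower, edgeR adjusted p = 0.0111). Its groups did not overlap.

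In the EGF family 4 of 13 tested genes rose and 0 fell, beside 13.2% and 8.61% of all tested genes. The median was -0.15 and turned to 0.25 with library size alone. The summed level of the list was 2183 to 2459 CPM in the LiK mice and 1159 to 1878 CPM in the LiKM mice, lower in LiKM without overlap. Rises numbered 2 without LiK mouse 1. The receptor Erbb2 had 1.13, 1.13 and 0.837 CPM in LiK and 4.32, 4.37 and 3.66 CPM in LiKM mice (log2 fold change 1.98, SE 0.26, 3.94-fold higher, edgeR adjusted p = 0.000696). The neuregulin ligand gene Nrg1 had 0.704, 0 and 0.167 CPM in LiK and 4.98, 1.55 and 3.9 CPM in LiKM mice (log2 fold change 3.60, SE 0.71, 12.1-fold higher, edgeR adjusted p = 0.00546). Egfr itself did not pass, with 446, 1255 and 592 CPM in LiK and 617, 509 and 403 CPM in LiKM mice, where LiK mouse 2 had the highest value.

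Genes of RAS signalling and ERK feedback rose in part. Of 21 genes 9 rose and 0 fell (median 0.38), beside 13.2% and 8.61% of all tested genes. The rises numbered 5 without LiK mouse 2 or LiKM mouse 3. Spry1 had 3.87, 4.58 and 4.44 CPM in LiK and 11.5, 10.4 and 11.3 CPM in LiKM mice (log2 fold change 1.36, SE 0.21, 2.57-fold higher, edgeR adjusted p = 0.00138). The Ras GTPase-activating gene Rasal1 had 0.211, 0.113 and 0 CPM in LiK and 3.3, 3.31 and 3.42 CPM in LiKM mice (log2 fold change 4.78, SE 0.60, 27.5-fold higher, edgeR adjusted p = 0.000589). The transcription factor Etv5 had 7.47, 4.07 and 7.37 CPM in LiK and 12.4, 11.4 and 15.2 CPM in LiKM mice (log2 fold change 1.05, SE 0.22, 2.08-fold higher, edgeR adjusted p = 0.00691). The phosphatase Dusp6, a common readout of ERK, overlapped between strains with 93.8, 47.4 and 85.8 CPM in LiK and 119, 73.3 and 104 CPM in LiKM mice and did not pass.

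In the Notch pathway 4 of 21 genes rose and 0 fell (median 0.6), beside 13.2% and 8.61% of all tested genes. Rises numbered 2 without LiKM mouse 1. The ligand Jag1, which specifies ducts, had 8.03, 6.28 and 8.96 CPM in LiK and 21, 19 and 23.4 CPM in LiKM mice (log2 fold change 1.45, SE 0.21, 2.73-fold higher, edgeR adjusted p = 0.00117). Jag2 had 0.0704, 0.0566 and 0.167 CPM in LiK and 1.5, 1.55 and 1.43 CPM in LiKM mice (log2 fold change 3.90, SE 0.57, 14.9-fold higher, edgeR adjusted p = 0.0011). The receptor Notch2, required for duct formation, had 68.1, 59.4 and 73.8 CPM in LiK and 73.5, 76.6 and 65.5 CPM in LiKM mice and did not pass. Among TGF beta family genes 5 of 25 rose and 0 fell (median 0.37), beside the same shares of all tested genes. The rises numbered 3 without LiK mouse 1 or LiK mouse 3. The ligand Tgfb2 had 0.282, 0.905 and 0.0837 CPM in LiK and 5.16, 6.27 and 9.62 CPM in LiKM mice (log2 fold change 3.90, SE 0.59, 14.9-fold higher, edgeR adjusted p = 0.00142). The activin subunit Inhbb had 0.493, 0.905 and 0.586 CPM in LiK and 5.22, 2.47 and 3.26 CPM in LiKM mice (log2 fold change 2.43, SE 0.35, 5.38-fold higher, edgeR adjusted p = 0.00102). Tgfb1, the ligand most tied to fibrosis, had 5.85, 8.32 and 7.79 CPM in LiK and 10.4, 10.9 and 7 CPM in LiKM mice and did not pass. In the Wnt list 3 of 24 rose, a share near the 13.2% of all tested genes, and 1 fell. Falls numbered 0 without LiK mouse 1 and 2 without LiK mouse 2, LiKM mouse 2 on ACR or LiKM mouse 1. Wnt5a, a ligand outside the beta-catenin branch, had 0.704, 1.3 and 0.67 CPM in LiK and 4.32, 2.82 and 3.34 CPM in LiKM mice (log2 fold change 1.93, SE 0.41, 3.81-fold higher, edgeR adjusted p = 0.00796). The beta-catenin target Axin2 had 2.75, 9.34 and 5.69 CPM in LiK and 5.82, 6.62 and 4.93 CPM in LiKM mice and did not pass.

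YAP is a co-activator that enters the nucleus when Hippo kinases are inactive and binds TEAD factors at the sequence GGAATG on either strand. Of 18 genes listed as YAP and TEAD targets 7 rose and 0 fell (median 0.75). The list also holds components of the pathway itself, among them Yap1, Wwtr1, Lats2 and Tead2, and Tead2 is one of the 7. The rises numbered 3 without LiK mouse 3 and 4 without LiK mouse 1 or LiKM mouse 2. The promoters of Ankrd1 and Ajuba, which rose, and of Amotl2, which did not pass, are shown because all of them hold the TEAD sequence. Each line gives the 250 bases before the gene's start, 5′ to 3′ on the gene's own strand, from RefSeq on GRCm38.p6, with that sequence in capitals.
Ankrd1, chr19:36119845-36120094, minus strand: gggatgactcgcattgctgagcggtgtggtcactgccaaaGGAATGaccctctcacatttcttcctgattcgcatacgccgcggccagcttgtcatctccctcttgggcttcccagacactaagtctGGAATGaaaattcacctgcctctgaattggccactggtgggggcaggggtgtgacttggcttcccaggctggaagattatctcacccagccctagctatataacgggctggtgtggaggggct
Ajuba, chr14:54577662-54577911, minus strand: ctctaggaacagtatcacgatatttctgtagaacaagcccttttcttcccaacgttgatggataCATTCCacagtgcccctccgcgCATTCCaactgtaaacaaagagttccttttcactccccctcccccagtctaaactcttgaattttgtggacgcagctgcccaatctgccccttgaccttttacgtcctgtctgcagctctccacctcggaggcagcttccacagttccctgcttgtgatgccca
Amotl2, chr9:102717554-102717803, plus strand: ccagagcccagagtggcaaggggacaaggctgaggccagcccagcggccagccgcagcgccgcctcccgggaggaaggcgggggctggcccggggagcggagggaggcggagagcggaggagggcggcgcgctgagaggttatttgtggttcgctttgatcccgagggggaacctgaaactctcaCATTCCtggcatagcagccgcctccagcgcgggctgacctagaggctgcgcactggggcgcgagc

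The matches begin at -210 and -123 from the start of Ankrd1, at -186 and -164 from that of Ajuba and at -65 from that of Amotl2. The RefSeq start of Ankrd1 lies inside the longer GENCODE span given for that gene below. In windows of 250 bases before to 50 after the start, 1291 of 10462 tested genes with a promoter in the table held the sequence (12.3%). The share was 13.8% among genes that rose (186 of 1343), 13.7% among genes that fell (126 of 917) and 11.9% among the others (979 of 8202). Of the YAP and TEAD list 12 had a promoter and 8 held it, among them 2 of the 4 that rose. The 8 include the pathway components Yap1, Wwtr1 and Lats2. A match is a description of these letters only.

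Ankrd1 (chromosome 19, 36111961 to 36120099), an ankyrin repeat protein induced by stretch and by YAP, had 0, 0.283 and 0.0837 CPM in LiK and 7.44, 6.55 and 9.78 CPM in LiKM mice (log2 fold change 5.79, SE 0.57, 55.3-fold higher, edgeR adjusted p = 0.000153). Ajuba, a LIM protein that restrains the Hippo kinases, had 5.92, 6.62 and 10.5 CPM in LiK and 18.2, 15.8 and 20.4 CPM in LiKM mice (log2 fold change 1.25, SE 0.27, 2.38-fold higher, edgeR adjusted p = 0.0087). Amotl2, a YAP-binding junction protein, had 34.4, 43.4 and 40.9 CPM in LiK and 35.5, 32.3 and 42 CPM in LiKM mice (log2 fold change -0.11, SE 0.14, edgeR adjusted p = 0.587). Ctgf, the secreted matricellular target, had 8.52, 9.34 and 5.53 CPM in LiK and 35.6, 40.4 and 15.4 CPM in LiKM mice (log2 fold change 1.96, SE 0.51, 3.89-fold higher, edgeR adjusted p = 0.021). Its groups did not overlap, and its call ended without LiK mouse 1, LiK mouse 3, LiKM mouse 1 or LiKM mouse 2 (edgeR adjusted p from 0.0574 to 0.0752), and with the identifier prefix as a term. Cyr61, a close relative, had 6.06, 19.3 and 4.77 CPM in LiK and 11.8, 15.6 and 38.7 CPM in LiKM mice and did not pass.

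Targets of p53 that passed the test were mostly higher in LiKM mice. Of 26 targets in growth arrest and repair 9 rose and 0 fell (median 0.56), and of 26 targets in cell death and metabolism 9 rose and 1 fell (median 0.55). The fall was of the glutaminase Gls2, whose call ended without LiK mouse 1, LiK mouse 3 or LiKM mouse 1 and with only the 6 normal diet libraries. The summed level of the cell death and metabolism list was 1670 to 1971 CPM in the LiK mice and 1194 to 1494 CPM in the LiKM mice, lower in LiKM without overlap. Cdkn1a, which encodes the cell cycle inhibitor p21, had 6.97, 3.62 and 5.95 CPM in LiK and 86.6, 22.9 and 15.1 CPM in LiKM mice (log2 fold change 2.93, SE 0.66, 7.62-fold higher, edgeR adjusted p = 0.0123). Its LiKM values spread widely, with mouse 1 highest, and all lay above the LiK mice. Psrc1, a microtubule protein and p53 target, had 0, 0.17 and 0.0837 CPM in LiK and 4.98, 1.83 and 2.62 CPM in LiKM mice (log2 fold change 5.01, SE 0.62, 32.1-fold higher, edgeR adjusted p = 0.000485). Phlda3, an inhibitor of AKT, had 0.704, 1.13 and 0.502 CPM in LiK and 9.72, 5 and 3.58 CPM in LiKM mice (log2 fold change 2.92, SE 0.42, 7.58-fold higher, edgeR adjusted p = 0.00109). Of the death genes, the receptor Eda2r had 0.845, 0.396 and 0.67 CPM in LiK and 8.22, 3.03 and 2.23 CPM in LiKM mice (log2 fold change 2.85, SE 0.53, 7.19-fold higher, edgeR adjusted p = 0.00442). The apoptosome scaffold Apaf1 had 2.04, 3.45 and 3.27 CPM in LiK and 8.34, 8.45 and 7.56 CPM in LiKM mice (log2 fold change 1.47, SE 0.23, 2.77-fold higher, edgeR adjusted p = 0.00162). Bax had 13.7, 13.6 and 9.97 CPM in LiK and 22.3, 18.9 and 22.9 CPM in LiKM mice (log2 fold change 0.78, SE 0.18, 1.72-fold higher, edgeR adjusted p = 0.0101). The BH3 genes Bbc3, with 3.73, 4.58 and 3.35 CPM in LiK and 4.08, 5.28 and 11.6 CPM in LiKM mice, and Pmaip1, with 0.564, 0.905 and 1 CPM in LiK and 1.38, 1.9 and 1.67 CPM in LiKM mice, did not pass. Trp53 itself had 14.4, 19.5 and 15.8 CPM in LiK and 23.1, 19.7 and 29.7 CPM in LiKM mice (log2 fold change 0.54, SE 0.17, 1.45-fold higher, edgeR adjusted p = 0.0425), a call that ended without LiK mouse 2 on ACR, LiK mouse 3 on ACR, LiK mouse 1, LiK mouse 3, LiKM mouse 1 on ACR, LiKM mouse 2 on ACR, LiKM mouse 1 or LiKM mouse 3 (edgeR adjusted p from 0.051 to 0.163).

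Few cell cycle genes passed the test. Of 37 tested 1 rose and 0 fell (median 0.1), and 6 fell when LiKM mouse 1 was left out. The proliferation marker Mki67 had 2.54, 5.77 and 6.53 CPM in LiK and 11.3, 7.33 and 8.99 CPM in LiKM mice and did not pass. The gene that rose was the D-type cyclin Ccnd2, with 8.31, 9.39 and 8.37 CPM in LiK and 27.4, 28 and 17.1 CPM in LiKM mice (log2 fold change 1.48, SE 0.24, 2.78-fold higher, edgeR adjusted p = 0.00176). The CDK inhibitor p15 (Cdkn2b) had 0.211, 0.0566 and 0.0837 CPM in LiK and 1.92, 0.986 and 2.31 CPM in LiKM mice (log2 fold change 3.82, SE 0.69, 14.1-fold higher, edgeR adjusted p = 0.00356). Of 34 genes of the BCL2 family, caspases and death receptors 8 rose and 0 fell, beside 13.2% and 8.61% of all tested genes. The survival factor Bcl2 had 1.76, 2.09 and 1.51 CPM in LiK and 4.56, 5.49 and 6.05 CPM in LiKM mice (log2 fold change 1.57, SE 0.28, 2.96-fold higher, edgeR adjusted p = 0.00319). The inflammatory caspase Casp12 had 1.9, 1.7 and 0.921 CPM in LiK and 9.9, 10.7 and 12.5 CPM in LiKM mice (log2 fold change 2.84, SE 0.34, 7.17-fold higher, edgeR adjusted p = 0.000445).

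Of 23 secreted factors of senescent cells 13 rose and 0 fell (median 1.67). The rises numbered 7 without LiK mouse 1 and 8 without LiK mouse 3. Igfbp7, a secreted IGF-binding protein, had 42.5, 66.8 and 49.6 CPM in LiK and 122, 135 and 156 CPM in LiKM mice (log2 fold change 1.38, SE 0.19, 2.6-fold higher, edgeR adjusted p = 0.000954). The adhesion molecule Icam1, which leukocytes bind, had 5.14, 9.56 and 8.04 CPM in LiK and 29.6, 21.6 and 22 CPM in LiKM mice (log2 fold change 1.68, SE 0.25, 3.21-fold higher, edgeR adjusted p = 0.00132). The cytokine Lif had 0.423, 0.113 and 0.419 CPM in LiK and 2.52, 1.2 and 1.51 CPM in LiKM mice (log2 fold change 2.50, SE 0.58, 5.66-fold higher, edgeR adjusted p = 0.0115). Imprinted and fetal liver genes had 9 rises and 0 falls among 20 tested (median 1.04), and the count of rises was 4 without LiK mouse 1 or LiK mouse 3 and 5 without LiK mouse 2 or LiKM mouse 1. The oncofetal proteoglycan Gpc3 had 1.41, 1.3 and 0.754 CPM in LiK and 20.8, 7.82 and 12.3 CPM in LiKM mice (log2 fold change 3.53, SE 0.73, 11.6-fold higher, edgeR adjusted p = 0.00838). The zinc finger factor Plagl1 had 1.34, 1.36 and 1 CPM in LiK and 4.08, 2.68 and 7.4 CPM in LiKM mice (log2 fold change 1.91, SE 0.40, 3.76-fold higher, edgeR adjusted p = 0.00719). The imprinted RNA H19 had 17.9, 0.0566 and 12.2 CPM in LiK and 58.7, 31.3 and 24.3 CPM in LiKM mice, with LiK mouse 2 near 0, and did not pass.

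Cytoskeletal genes rose in part. Of 40 actin and tubulin cytoskeleton genes 21 rose and 0 fell (median 0.67). The rises numbered 13 without LiK mouse 1. Ezrin (Ezr), which links actin to the apical membrane, had 3.8, 5.26 and 5.61 CPM in LiK and 23, 21.2 and 22.4 CPM in LiKM mice (log2 fold change 2.18, SE 0.18, 4.54-fold higher, edgeR adjusted p = 5.86e-05). The actin monomer-binding thymosin Tmsb10 had 4.51, 6.62 and 5.02 CPM in LiK and 24, 28 and 33.9 CPM in LiKM mice (log2 fold change 2.40, SE 0.25, 5.27-fold higher, edgeR adjusted p = 0.000214). Transgelin 2 (Tagln2) had 8.95, 16.8 and 11.6 CPM in LiK and 72.2, 53.7 and 53.5 CPM in LiKM mice (log2 fold change 2.26, SE 0.25, 4.78-fold higher, edgeR adjusted p = 0.000256). Of 25 annexins, S100 proteins and galectins 13 rose and 1 fell (median 0.98). The fall was of Anxa11, whose call ended without LiK mouse 1, LiK mouse 3, LiKM mouse 1 or LiKM mouse 3 (edgeR adjusted p from 0.0784 to 0.103). S100a11 had 5.85, 7.87 and 5.19 CPM in LiK and 28.7, 26.7 and 47 CPM in LiKM mice (log2 fold change 2.42, SE 0.27, 5.36-fold higher, edgeR adjusted p = 0.000262). Annexin A2 (Anxa2) had 10.9, 13.5 and 10.8 CPM in LiK and 62, 36.8 and 49.95 CPM in LiKM mice (log2 fold change 2.08, SE 0.29, 4.22-fold higher, edgeR adjusted p = 0.00102). Annexin A5 (Anxa5) had 55.8, 64.1 and 48.7 CPM in LiK and 146, 153 and 250.5 CPM in LiKM mice (log2 fold change 1.70, SE 0.29, 3.26-fold higher, edgeR adjusted p = 0.00313). In all 6 of these genes the groups did not overlap, as in 1793 of the 1836 genes that rose.

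Genes of the basement membrane, the sheet under epithelia and vessels, were among those that rose. Of 36 laminins and integrins 19 rose and 1 fell (median 1.09). The fall was of Lama3, and falls numbered 0 without LiK mouse 1 on ACR, LiK mouse 2 on ACR, LiK mouse 3 on ACR, LiK mouse 2, LiK mouse 3, LiKM mouse 1 or LiKM mouse 3. The laminin chain Lama5 had 3.94, 4.53 and 6.03 CPM in LiK and 28.8, 29.1 and 34 CPM in LiKM mice (log2 fold change 2.67, SE 0.26, 6.37-fold higher, edgeR adjusted p = 0.000135). The laminin receptor subunits Itga3 and Itgb4 also rose. Itga3 had 7.19, 7.87 and 7.96 CPM in LiK and 28.2, 24.6 and 23.8 CPM in LiKM mice (log2 fold change 1.73, SE 0.13, 3.33-fold higher, edgeR adjusted p = 3.44e-05). Itgb4 had 0.845, 1.02 and 0.502 CPM in LiK and 5.88, 7.11 and 7 CPM in LiKM mice (log2 fold change 3.03, SE 0.34, 8.18-fold higher, edgeR adjusted p = 0.000268). Nidogen 1 (Nid1), which ties laminin to collagen IV, had 21.4, 21.6 and 28.1 CPM in LiK and 131, 56.1 and 64.3 CPM in LiKM mice (log2 fold change 1.82, SE 0.31, 3.54-fold higher, edgeR adjusted p = 0.0032). The heparan sulfate proteoglycans agrin (Agrn) and perlecan (Hspg2) also rose. Agrn had 46.4, 47.6 and 48.7 CPM in LiK and 100.2, 116 and 129.9 CPM in LiKM mice (log2 fold change 1.28, SE 0.14, 2.42-fold higher, edgeR adjusted p = 0.000256). Hspg2 had 19.3, 35 and 31.2 CPM in LiK and 71.6, 60.7 and 56.8 CPM in LiKM mice (log2 fold change 1.15, SE 0.19, 2.21-fold higher, edgeR adjusted p = 0.00251). The subunit Itgb1, common to many integrins, had 186, 198 and 202 CPM in LiK and 196, 183 and 147 CPM in LiKM mice and did not pass.

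Of 30 collagens 9 rose and 1 fell (median 0.72). The rises numbered 2 without LiK mouse 1 and 4 without LiK mouse 3, LiKM mouse 1 or LiKM mouse 2. Of the 9 rises, 5 were chains of basement membrane collagen IV. Col4a1 had 22.5, 39.6 and 27.9 CPM in LiK and 121, 73.4 and 52.7 CPM in LiKM mice (log2 fold change 1.46, SE 0.31, 2.74-fold higher, edgeR adjusted p = 0.00824). The fibrillar collagen Col1a1 had 4.44, 54.1 and 13.9 CPM in LiK and 58.5, 46.4 and 30.5 CPM in LiKM mice, with the lowest value in LiK mouse 1, and did not pass. Col18a1, which hepatocytes secrete, fell, with 1195, 1066 and 1231 CPM in LiK and 739, 821 and 754 CPM in LiKM mice (log2 fold change -0.59, SE 0.13, 1.51-fold lower, edgeR adjusted p = 0.00857). Of 30 other matrix glycoproteins 15 rose and 1 fell (median 1.24). The rises numbered 9 without LiK mouse 3. The fall was lost when any 1 of 10 of the 12 libraries was left out. Of 45 matrix proteases and inhibitors 22 rose and 2 fell (median 1.35). The rises numbered 10 without LiK mouse 1 and 11 without LiK mouse 3. The falls numbered 0 without LiK mouse 3 or LiKM mouse 2 and 1 without LiK mouse 2 on ACR, LiK mouse 3 on ACR, LiK mouse 1, LiK mouse 2 or LiKM mouse 3. The protease Adamts9 had 1.34, 1.92 and 1.51 CPM in LiK and 11.2, 9.79 and 10.02 CPM in LiKM mice (log2 fold change 2.68, SE 0.29, 6.43-fold higher, edgeR adjusted p = 0.000241). Adamts10 had 9.44, 11.9 and 8.79 CPM in LiK and 24.5, 26.6 and 39.5 CPM in LiKM mice (log2 fold change 1.58, SE 0.21, 2.99-fold higher, edgeR adjusted p = 0.000667). Timp1, an inhibitor often raised in fibrosis, had 0, 0.396 and 0 CPM in LiK and 1.14, 0.986 and 0.875 CPM in LiKM mice and did not pass (edgeR adjusted p = 0.051).

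Markers of the stromal and vascular cells of the liver rose in part. Of 19 stellate cell and myofibroblast markers 4 rose and 0 fell (median 0.41), with a summed level of 409 to 756 CPM in the LiK mice and 465 to 958 CPM in the LiKM mice. Rises numbered 1 without LiK mouse 1, LiK mouse 3 or LiKM mouse 1, 2 without LiKM mouse 2 and 7 without LiKM mouse 3. Falls numbered 2 without LiK mouse 1. Of all tested genes 13.2% rose. Cytoglobin (Cygb), a stellate cell globin, had 4.86, 12.1 and 7.12 CPM in LiK and 26.2, 33.4 and 18.3 CPM in LiKM mice (log2 fold change 1.68, SE 0.36, 3.21-fold higher, edgeR adjusted p = 0.00954). The myofibroblast actin Acta2 had 0.845, 16.5 and 4.61 CPM in LiK and 2.22, 1.55 and 2.94 CPM in LiKM mice and did not pass. Of 23 endothelial markers 3 rose, a share near the 13.2% of all tested genes, and 0 fell (median 0.33). Their summed level was 497 to 748 CPM in the LiK mice and 697 to 756 CPM in the LiKM mice. Rises numbered 1 without LiK mouse 1 and 5 without LiK mouse 2. With library size alone 14 rose. Lyve1, a hyaluronan receptor, had 6.06, 3.62 and 6.28 CPM in LiK and 16.1, 12.3 and 12 CPM in LiKM mice (log2 fold change 1.35, SE 0.32, 2.55-fold higher, edgeR adjusted p = 0.0125). The sinusoidal scavenger receptor Stab2 had 37.8, 54.3 and 69 CPM in LiK and 61.1, 55.4 and 68.7 CPM in LiKM mice and did not pass.

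Among immune genes, part of the T and NK cell markers and of the MHC class II genes rose, and few markers of B cells and resident Kupffer cells did. Of 26 tested T and NK cell markers 18 rose and 1 fell (median 2.45). The rises numbered 7 without LiK mouse 1, 9 without LiK mouse 3, LiKM mouse 2 or LiKM mouse 3 and 11 without LiK mouse 2. Their summed level was low, 18.2 to 22.7 CPM in the LiK mice and 28 to 42.3 CPM in the LiKM mice. Cd8a, the co-receptor of cytotoxic T cells, had 0.493, 0.113 and 0 CPM in LiK and 1.74, 3.52 and 1.59 CPM in LiKM mice (log2 fold change 3.42, SE 0.65, 10.7-fold higher, edgeR adjusted p = 0.0047). Granzyme K (Gzmk) had 0 CPM in all LiK mice and 0.78, 1.2 and 1.03 CPM in the LiKM mice. The helper co-receptor Cd4, which Kupffer cells and monocytes can also express, had 4.51, 4.47 and 6.36 CPM in LiK and 2.64, 3.66 and 2.31 CPM in LiKM mice and was the member that fell, a call that ended without LiK mouse 2 on ACR, LiK mouse 1, LiK mouse 3, LiKM mouse 1 or LiKM mouse 3 (edgeR adjusted p from 0.0504 to 0.138). Resident Kupffer cell markers had 2 rises and 1 fall among 17 (median 0.15), beside 13.2% and 8.61% of all tested genes. Their summed level was 502 to 715 CPM in the LiK mice and 505 to 780 CPM in the LiKM mice. Rises numbered 0 without LiK mouse 1, LiK mouse 3 or LiKM mouse 2 and 1 without LiK mouse 2 on ACR, LiKM mouse 2 on ACR or LiKM mouse 1. The fall was lost when any 1 of 9 of the 12 libraries was left out, and falls numbered 2 without LiKM mouse 2. The defining Kupffer lectin Clec4f had 45.2, 66.9 and 67.9 CPM in LiK and 60.5, 80.8 and 42.6 CPM in LiKM mice and did not pass.

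Of 22 markers of recruited and lipid-associated macrophages 9 rose and 1 fell (median 1.43). The fall was of coagulation factor F10, a hepatocyte product, and Spp1, Cd9 and Cd63 on that list are also made by duct cells. The monocyte co-receptor for endotoxin Cd14 had 1.97, 2.04 and 1.34 CPM in LiK and 8.64, 6.55 and 7.56 CPM in LiKM mice (log2 fold change 2.07, SE 0.34, 4.2-fold higher, edgeR adjusted p = 0.00203). The fractalkine receptor Cx3cr1 had 0.423, 2.83 and 0.502 CPM in LiK and 8.04, 8.1 and 8.35 CPM in LiKM mice (log2 fold change 2.61, SE 0.55, 6.12-fold higher, edgeR adjusted p = 0.00819). Trem2, which marks lipid-associated macrophages, had 0.141, 1.81 and 1.09 CPM in LiK and 2.04, 3.24 and 4.22 CPM in LiKM mice and did not pass. Of 17 dendritic cell markers 8 rose and 0 fell (median 1.34). One of the 8 was Cd24a, described above as a surface protein of progenitor and ductular cells. Another was the receptor Flt3, with 0.141, 0.283 and 0.251 CPM in LiK and 1.62, 2.82 and 1.99 CPM in LiKM mice (log2 fold change 3.19, SE 0.46, 9.1-fold higher, edgeR adjusted p = 0.00109). Of 15 neutrophil markers 7 had enough counts to be tested, and 4 of these rose. The summed level of the 7 was 2.4 to 6.05 CPM in the LiK mice and 11.3 to 17.3 CPM in the LiKM mice. Of 14 B and plasma cell markers 3 rose, beside 13.2% of all tested genes. The count was 0 without LiK mouse 2 and 1 without LiK mouse 1, LiK mouse 3 or LiKM mouse 3. The B cell receptor component Cd79a had 0.564, 0.566 and 0.502 CPM in LiK and 0.36, 1.69 and 3.66 CPM in LiKM mice and did not pass.

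Antigen presentation on MHC class II, by which dendritic cells, macrophages and B cells show peptides to helper T cells, rose in 9 of 13 genes with 0 falls (median 1.93). H2-Aa had 15.5, 31.7 and 13.4 CPM in LiK and 85.5, 134 and 106 CPM in LiKM mice (log2 fold change 2.42, SE 0.42, 5.34-fold higher, edgeR adjusted p = 0.00403). H2-Eb1 had 11.8, 22.7 and 11.9 CPM in LiK and 78.5, 118 and 95.6 CPM in LiKM mice (log2 fold change 2.64, SE 0.40, 6.25-fold higher, edgeR adjusted p = 0.00169). The master regulator Ciita had 0.845, 1.87 and 0.502 CPM in LiK and 6.24, 8.1 and 5.41 CPM in LiKM mice (log2 fold change 2.55, SE 0.37, 5.85-fold higher, edgeR adjusted p = 0.00114). The summed level of the genes was 101 to 212 CPM in the LiK mice and 511 to 800 CPM in the LiKM mice, without overlap. MHC class I, which all cells carry, had 2 rises and 1 fall among 19 (median 0.08), beside 13.2% and 8.61% of all tested genes. Falls numbered 0 without LiK mouse 1 or LiK mouse 3. Its light chain B2m had 1477, 1201 and 1276 CPM in LiK and 1116, 1485 and 1666 CPM in LiKM mice and did not pass.

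Of 24 chemokines 10 rose and 0 fell (median 1.59). Cxcl16, which draws T and NKT cells, had 5.07, 9.28 and 7.37 CPM in LiK and 22, 26.8 and 18.7 CPM in LiKM mice (log2 fold change 1.63, SE 0.22, 3.09-fold higher, edgeR adjusted p = 0.000707). Fractalkine (Cx3cl1) had 0.352, 1.24 and 0.419 CPM in LiK and 10.2, 8.45 and 3.66 CPM in LiKM mice (log2 fold change 3.39, SE 0.53, 10.5-fold higher, edgeR adjusted p = 0.00154). The monocyte attractant Ccl2 had 0.0704, 0.679 and 0.167 CPM in LiK and 4.62, 2.32 and 1.75 CPM in LiKM mice (log2 fold change 3.11, SE 0.56, 8.65-fold higher, edgeR adjusted p = 0.00346). The T cell product Ccl5 had 0.423, 0.226 and 0.586 CPM in LiK and 2.7, 9.3 and 7.48 CPM in LiKM mice (log2 fold change 4.01, SE 0.68, 16.1-fold higher, edgeR adjusted p = 0.00281). Lymphotoxin beta (Ltb), known from the ductular reaction, had 0.282, 0.396 and 0.167 CPM in LiK and 8.88, 5.78 and 5.89 CPM in LiKM mice (log2 fold change 4.51, SE 0.46, 22.8-fold higher, edgeR adjusted p = 0.000187). The oncostatin M receptor Osmr had 4.09, 2.83 and 3.01 CPM in LiK and 25.9, 14.5 and 9.94 CPM in LiKM mice (log2 fold change 2.35, SE 0.34, 5.09-fold higher, edgeR adjusted p = 0.00113). Of 46 chemokine and cytokine receptors 19 rose and 2 fell (median 0.87). The rises numbered 12 without LiK mouse 1 or LiKM mouse 2. Interferon response genes had 7 rises among 38 (median 0.52), a share not far from the 13.2% of all tested genes that rose. The count was 3 with limma voom. It was also 3 without LiK mouse 3 or LiKM mouse 2 and 4 without LiK mouse 1, LiK mouse 2 or LiKM mouse 3. The antiviral synthetase Oas2 had 3.1, 3.73 and 3.6 CPM in LiK and 6.96, 7.89 and 8.99 CPM in LiKM mice (log2 fold change 1.19, SE 0.17, 2.28-fold higher, edgeR adjusted p = 0.00109). Isg15 had 5.28, 3.34 and 4.19 CPM in LiK and 5.4, 5.99 and 11.5 CPM in LiKM mice and did not pass.

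**Figure D3:**
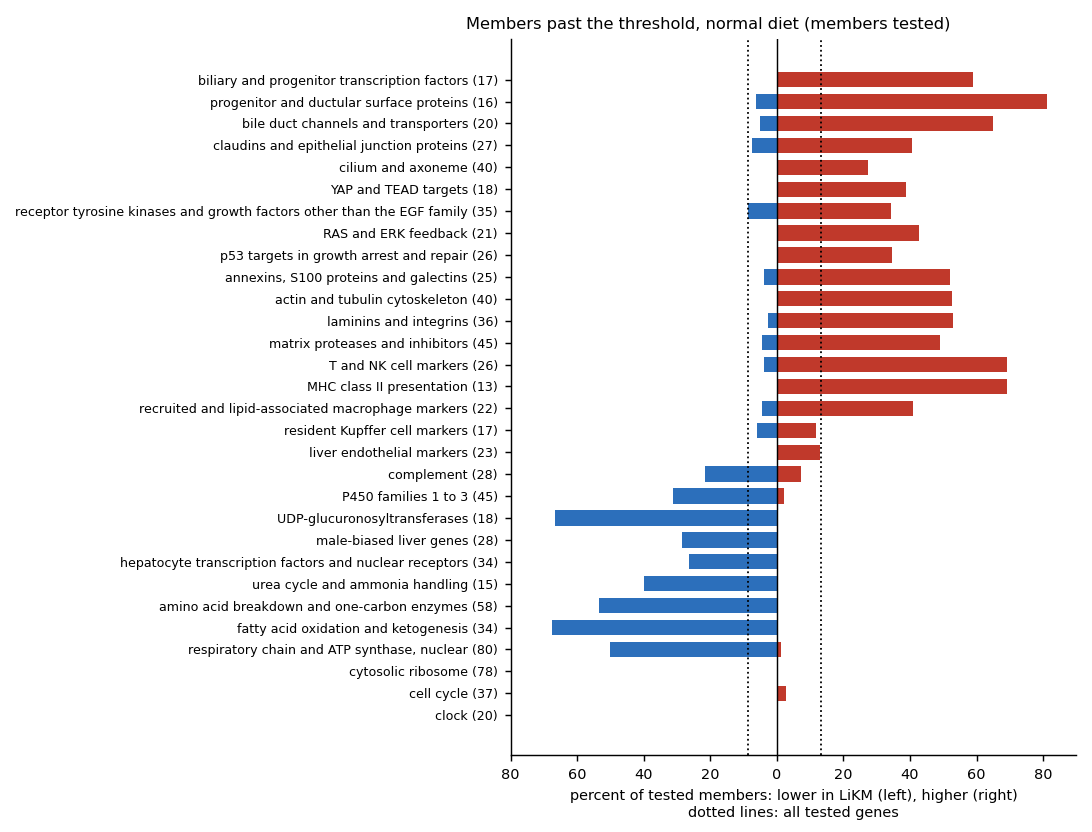
Percent of the tested members of 30 gene lists that passed edgeR's test as higher (red, right) or lower (blue, left) in LiKM mice on the normal diet, with the number tested in parentheses. Dotted lines mark 13.2% higher and 8.61% lower over all tested genes. Duct, cytoskeletal, laminin, protease, T cell and MHC class II lists lie to the right and metabolic lists to the left, and cytosolic ribosome and clock lists have 0 called members.

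Hepatocyte genes were lower in LiKM mice by modest factors. Fewer of them passed with library size alone than with TMM factors. Many hepatocyte genes are abundant, and of all genes 34.1% fell at 100 to 1000 CPM and 30% above 1000 CPM. The shares of falls in the hepatocyte lists here and below are to be read beside these values as well as beside 8.61%. Of the genes named in the text as lower, Abcc2, Acadvl, C8g, Cldn12, Col18a1, Cox5a, Creb3l3, Haao, Hadhb, Klb, Lgr4, Ndufs1, Otc, Ppara, Scd1, Tfr2, Anxa11, Cd4, F10, Gls2, Lama3, Leap2 and Mreg lost their call with library size alone and kept their sign. Of 34 genes of fatty acid oxidation and ketogenesis 23 fell and 0 rose (median -0.57), against 8.61% of all tested genes that fell. With library size alone 2 fell (median -0.18), and the count was 14 without LiK mouse 1 and 15 without LiKM mouse 1. The peroxisomal bifunctional enzyme Ehhadh had 191, 228 and 185 CPM in LiK and 111, 116 and 76.8 CPM in LiKM mice (log2 fold change -0.99, SE 0.15, 1.99-fold lower, edgeR adjusted p = 0.00145). The peroxisomal fatty acyl carrier Abcd3 had 935, 889 and 835 CPM in LiK and 432, 568 and 326 CPM in LiKM mice (log2 fold change -1.003, SE 0.19, 2-fold lower, edgeR adjusted p = 0.00426). The mitochondrial dehydrogenase Acadvl had 369, 359.6 and 328 CPM in LiK and 229, 253 and 213 CPM in LiKM mice (log2 fold change -0.60, SE 0.11, 1.52-fold lower, edgeR adjusted p = 0.00291). The trifunctional protein subunit Hadhb had 244, 227 and 201 CPM in LiK and 146, 151 and 151 CPM in LiKM mice (log2 fold change -0.58, SE 0.10, 1.5-fold lower, edgeR adjusted p = 0.00207). The nuclear receptor Ppara, which drives these genes, had 395, 465 and 488 CPM in LiK and 258, 309 and 236 CPM in LiKM mice (log2 fold change -0.75, SE 0.14, 1.68-fold lower, edgeR adjusted p = 0.0042). In each of these genes the 3 LiKM mice lay below the 3 LiK mice, as in 1187 of the 1195 genes that fell.

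Amino acid breakdown and one-carbon enzymes fell in 31 of 58 cases and rose in 0 (median -0.56). With library size alone 3 fell and 1 rose (median -0.18). Falls numbered 6 without LiK mouse 1, 12 without LiK mouse 3, 14 without LiKM mouse 1 and 16 without LiKM mouse 3. Haao, an enzyme of tryptophan breakdown, had 426, 438 and 419.9 CPM in LiK and 258, 292 and 272 CPM in LiKM mice (log2 fold change -0.64, SE 0.10, 1.56-fold lower, edgeR adjusted p = 0.00132). Dimethylglycine dehydrogenase (Dmgdh) had 434, 445 and 411 CPM in LiK and 268, 254 and 173 CPM in LiKM mice (log2 fold change -0.89, SE 0.18, 1.85-fold lower, edgeR adjusted p = 0.0059). In the urea cycle list 6 of 15 genes fell (median -0.64), and 2 did with library size alone. The count was 3 without LiK mouse 1 or LiK mouse 3. Ass1, which joins citrulline and aspartate, had 1242, 1480 and 1638 CPM in LiK and 857, 894 and 557 CPM in LiKM mice (log2 fold change -0.92, SE 0.21, 1.89-fold lower, edgeR adjusted p = 0.0117). Otc had 436, 376 and 396 CPM in LiK and 213, 298 and 285 CPM in LiKM mice (log2 fold change -0.60, SE 0.14, 1.52-fold lower, edgeR adjusted p = 0.0101). Cps1, the entry enzyme of the cycle, had 5954, 6186 and 7297 CPM in LiK and 5095, 4548 and 2137 CPM in LiKM mice, with the lowest value in LiKM mouse 3, and did not pass.

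Drug and steroid metabolism was lower in several families. Of 18 UDP-glucuronosyltransferases 12 fell (median -0.56), and the count was 5 without LiK mouse 1 and 6 without LiKM mouse 3 and 3 with library size alone. Of the falls 7 are Ugt1a genes, which share exons, and their counts are not independent. Ugt2a3 had 326, 305 and 331 CPM in LiK and 159, 188 and 131 CPM in LiKM mice (log2 fold change -1.01, SE 0.18, 2.01-fold lower, edgeR adjusted p = 0.00318). Ugt3a1 had 55.1, 57.9 and 52.4 CPM in LiK and 34.4, 34.3 and 30.5 CPM in LiKM mice (log2 fold change -0.74, SE 0.10, 1.67-fold lower, edgeR adjusted p = 0.000681). Of 45 tested P450 genes of families 1 to 3 14 fell and 1 rose (median -0.67). The number of falls was 8 without LiK mouse 3 and 6 with library size alone. Cyp1a2, a pericentral enzyme, had 467, 479 and 489.8 CPM in LiK and 167, 266 and 71.7 CPM in LiKM mice (log2 fold change -1.51, SE 0.36, 2.85-fold lower, edgeR adjusted p = 0.0146), a call that ended with only the 6 normal diet libraries. Cyp2f2, a periportal enzyme, had 1231, 1087 and 1013 CPM in LiK and 541, 766 and 495 CPM in LiKM mice (log2 fold change -0.89, SE 0.20, 1.85-fold lower, edgeR adjusted p = 0.00986). Cyp2c67, whose reads may be shared with near-identical Cyp2c genes and are uncertain, had 285, 475 and 445 CPM in LiK and 130.1, 194 and 72.3 CPM in LiKM mice (log2 fold change -1.60, SE 0.33, 3.04-fold lower, edgeR adjusted p = 0.00695). The abundant pericentral enzyme Cyp2e1 had 4805, 6262 and 5086 CPM in LiK and 3308, 3965 and 1954 CPM in LiKM mice and did not pass. The carboxylesterase Ces2a had 139, 203 and 137 CPM in LiK and 58.3, 98.3 and 46.1 CPM in LiKM mice (log2 fold change -1.24, SE 0.27, 2.36-fold lower, edgeR adjusted p = 0.00877).

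Transport genes of the hepatocyte membranes fell in part. Of 24 carriers 8 fell and 3 rose (median -0.47), against 8.61% and 13.2% of all tested genes, so the share of rises was near that of all genes. The count of falls was 5 without LiK mouse 1, LiK mouse 2, LiK mouse 3 or LiKM mouse 1. The bile acid importer Slc10a1 had 1119, 878 and 969.7 CPM in LiK and 369, 651 and 487 CPM in LiKM mice (log2 fold change -0.98, SE 0.21, 1.97-fold lower, edgeR adjusted p = 0.00744). The organic anion importer Slco1a1 had 749.7, 723 and 757 CPM in LiK and 327, 535 and 288 CPM in LiKM mice (log2 fold change -0.96, SE 0.21, 1.94-fold lower, edgeR adjusted p = 0.00979). The canalicular exporter Abcc2 had 568, 578 and 618 CPM in LiK and 375, 444 and 304 CPM in LiKM mice (log2 fold change -0.65, SE 0.15, 1.57-fold lower, edgeR adjusted p = 0.00979). The basolateral exporters Abcc3 and Abcc4, which are known to rise in cholestasis, were higher. Abcc3 had 81.9, 60.4 and 53.7 CPM in LiK and 138, 109.9 and 149 CPM in LiKM mice (log2 fold change 1.02, SE 0.18, 2.02-fold higher, edgeR adjusted p = 0.00319). Abcc4 had 1.69, 2.55 and 2.43 CPM in LiK and 7.62, 5 and 7 CPM in LiKM mice (log2 fold change 1.55, SE 0.24, 2.93-fold higher, edgeR adjusted p = 0.00162). Of 18 bile acid synthesis genes 5 fell (median -0.53), and the count was 3 without LiKM mouse 1 or LiKM mouse 3. The conjugating enzyme Slc27a5 had 848, 835 and 929.7 CPM in LiK and 463, 649.9 and 376 CPM in LiKM mice (log2 fold change -0.81, SE 0.19, 1.75-fold lower, edgeR adjusted p = 0.0112). Cyp7a1, the rate-limiting enzyme, varied within each strain, with 56.2, 262 and 90.8 CPM in LiK and 42.1, 91.3 and 15.4 CPM in LiKM mice, and did not pass.

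Male-biased liver genes, which pulsatile growth hormone sustains in male mice, fell in 8 of 28 cases and rose in 0 (median -0.81). Falls numbered 4 without LiK mouse 3, 5 without LiKM mouse 1 or LiKM mouse 3 and 14 without LiKM mouse 1 on ACR, and 3 with library size alone. The sulfotransferase Sult5a1 had 8.31, 6 and 5.19 CPM in LiK and 0.96, 1.62 and 0.875 CPM in LiKM mice (log2 fold change -2.49, SE 0.58, 5.61-fold lower, edgeR adjusted p = 0.0117). Of 24 female-biased genes 2 rose and 2 fell (median 0.45), beside 13.2% and 8.61% of all tested genes. Falls numbered 0 without LiK mouse 3 and 1 without LiK mouse 2, LiKM mouse 2 or LiKM mouse 3. One of the rises was the duct gene Prom1. Major urinary proteins are near-identical copies whose values are uncertain. Of 19 tested 6 fell (median -1.39), a count that changed with single libraries, to 0 without LiK mouse 1 or LiKM mouse 1, 1 without LiK mouse 3 or LiKM mouse 3, 3 without LiK mouse 1 on ACR, LiK mouse 2 on ACR, LiK mouse 3 on ACR or LiKM mouse 3 on ACR, 12 without LiKM mouse 1 on ACR, 13 without LiKM mouse 2 on ACR and 14 without LiKM mouse 2. The growth hormone receptor Ghr had 706, 673 and 679 CPM in LiK and 342, 484 and 303 CPM in LiKM mice (log2 fold change -0.87, SE 0.22, 1.82-fold lower, edgeR adjusted p = 0.0155), a call that ended without LiKM mouse 1 (edgeR adjusted p = 0.0533).

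Of 34 hepatocyte transcription factors and nuclear receptors 9 fell and 0 rose (median -0.39). The number of falls was 4 without LiK mouse 1 or LiK mouse 3, and with library size alone 1 fell and 1 rose. Creb3l3, a membrane-bound factor of the fasting response, had 315, 284 and 291 CPM in LiK and 175, 224 and 192 CPM in LiKM mice (log2 fold change -0.59, SE 0.13, 1.5-fold lower, edgeR adjusted p = 0.00815). The central factor Hnf4a had 574, 689.8 and 667 CPM in LiK and 575, 474 and 467 CPM in LiKM mice and did not pass. Cebpa had 283, 318 and 305 CPM in LiK and 166, 211 and 305 CPM in LiKM mice and did not pass either.

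Secreted hepatocyte proteins fell in part. Alb had 130942, 84472 and 125223 CPM in LiK and 73280, 75610 and 65979 CPM in LiKM mice and did not pass (log2 fold change -0.66, SE 0.22, edgeR adjusted p = 0.0526). The iron hormone hepcidin (Hamp) had 945, 666 and 717 CPM in LiK and 435, 223 and 250.3 CPM in LiKM mice (log2 fold change -1.36, SE 0.27, 2.56-fold lower, edgeR adjusted p = 0.00594). Transferrin receptor 2 (Tfr2), which acts upstream of it, had 425, 435 and 436 CPM in LiK and 301, 332 and 245 CPM in LiKM mice (log2 fold change -0.56, SE 0.14, 1.48-fold lower, edgeR adjusted p = 0.0135). Alpha-1 antitrypsin is encoded by near-identical genes in mice, so the value of each is uncertain. Of these, Serpina1d had 5367, 4933 and 6609 CPM in LiK and 2771, 3512 and 2842 CPM in LiKM mice (log2 fold change -0.89, SE 0.20, 1.85-fold lower, edgeR adjusted p = 0.0102). Complement had 6 falls and 2 rises among 28 (median -0.35, and 0.03 with library size alone), beside 8.61% and 13.2% of all tested genes. The falls included C8g of the terminal complex, with 301, 280.4 and 266 CPM in LiK and 146, 185 and 183 CPM in LiKM mice (log2 fold change -0.72, SE 0.13, 1.65-fold lower, edgeR adjusted p = 0.00346). The falls numbered 10 without LiKM mouse 2. The rises were the macrophage genes C1qb and C1qc, and they numbered 0 without LiK mouse 1, LiK mouse 3 or LiKM mouse 2 and 1 without LiK mouse 2 on ACR, LiKM mouse 2 on ACR or LiKM mouse 1. C1qc also lost its call with only the 6 normal diet libraries. C3 had 5689, 6073 and 7273 CPM in LiK and 7001, 6231 and 3478 CPM in LiKM mice and did not pass. The acute phase protein Saa1 varied widely within each strain, with 27.9, 405 and 314 CPM in LiK and 401, 149 and 26.9 CPM in LiKM mice, and did not pass.

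Of 23 fatty acid and triglyceride synthesis genes 6 fell (median -0.71), and the count was 2 without LiK mouse 1. Acss2, which makes acetyl-CoA from acetate, had 279.7, 257 and 271 CPM in LiK and 104, 142 and 117 CPM in LiKM mice (log2 fold change -1.15, SE 0.23, 2.22-fold lower, edgeR adjusted p = 0.00531). Acacb had 427, 453 and 417 CPM in LiK and 276, 205 and 150.5 CPM in LiKM mice (log2 fold change -1.04, SE 0.21, 2.05-fold lower, edgeR adjusted p = 0.00592). Scd1, a desaturase and the most abundant of the genes that fell, had 29119, 26463 and 24534 CPM in LiK and 20142, 16890 and 12105 CPM in LiKM mice (log2 fold change -0.71, SE 0.23, 1.63-fold lower, edgeR adjusted p = 0.0458), a call that ended without LiK mouse 1 on ACR, LiK mouse 2 on ACR, LiK mouse 3 on ACR, LiK mouse 1, LiK mouse 2, LiK mouse 3, LiKM mouse 2 on ACR, LiKM mouse 2 or LiKM mouse 3 (edgeR adjusted p from 0.056 to 0.127). Fasn had 7657, 3773 and 4679 CPM in LiK and 3990, 3452 and 1634 CPM in LiKM mice and did not pass. In glycolysis 5 of 25 genes rose and 5 fell, beside 13.2% and 8.61% of all tested genes. The count of falls was 0 without LiK mouse 1, 1 without LiK mouse 3, 2 without LiKM mouse 3 and 3 without LiK mouse 1 on ACR, LiK mouse 2 on ACR, LiK mouse 3 on ACR or LiKM mouse 1. The rises included hexokinase 1 (Hk1), with 2.4, 5.26 and 3.94 CPM in LiK and 9.06, 9.23 and 10.3 CPM in LiKM mice (log2 fold change 1.29, SE 0.23, 2.44-fold higher, edgeR adjusted p = 0.00331). The muscle-type pyruvate kinase Pkm, which hepatocytes express little, also rose, with 10.6, 21.2 and 16.2 CPM in LiK and 35.6, 30.6 and 26.7 CPM in LiKM mice (log2 fold change 0.95, SE 0.21, 1.93-fold higher, edgeR adjusted p = 0.00987).

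Of 80 nuclear genes of the respiratory chain and ATP synthase 40 fell and 1 rose (median -0.34), while with library size alone 0 fell and the median was 0.06. Falls numbered 22 without LiK mouse 1. Cox5a had 120.2, 124 and 112 CPM in LiK and 80.6, 84.7 and 78.2 CPM in LiKM mice (log2 fold change -0.55, SE 0.09, 1.46-fold lower, edgeR adjusted p = 0.00246). Ndufs1 had 144, 129.8 and 126 CPM in LiK and 87.9, 91.8 and 72.7 CPM in LiKM mice (log2 fold change -0.66, SE 0.13, 1.58-fold lower, edgeR adjusted p = 0.00473). The rise was of Cox6b2, a testis-type subunit, with 0.141, 0.17 and 0.0837 CPM in LiK and 1.02, 0.986 and 0.398 CPM in LiKM mice (log2 fold change 2.51, SE 0.59, 5.69-fold higher, edgeR adjusted p = 0.0126). Cytosolic ribosome genes had 0 rises and 0 falls among 78 (median 0.06), but 75 rises with library size alone. Core clock genes had 0 rises and 0 falls among 20. The clock output gene Dbp spread widely in the LiKM mice, with 35.9, 25.6 and 31.8 CPM in LiK and 8.46, 25.6 and 74 CPM in LiKM mice, on both sides of the LiK values. LiKM mouse 3 on the normal diet and LiKM mice 2 and 3 on ACR are set apart by clock genes in earlier results of these data. Without these 3 libraries 2992 genes were called, 1578 higher and 1414 lower, and 2387 (78.8%) of the 3031 were among them. The calls of Trp53, Scd1, C1qb, C1qc, Cd4, Lama3, Anxa11 and Pik3ap1 ended.

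**Figure D4:**
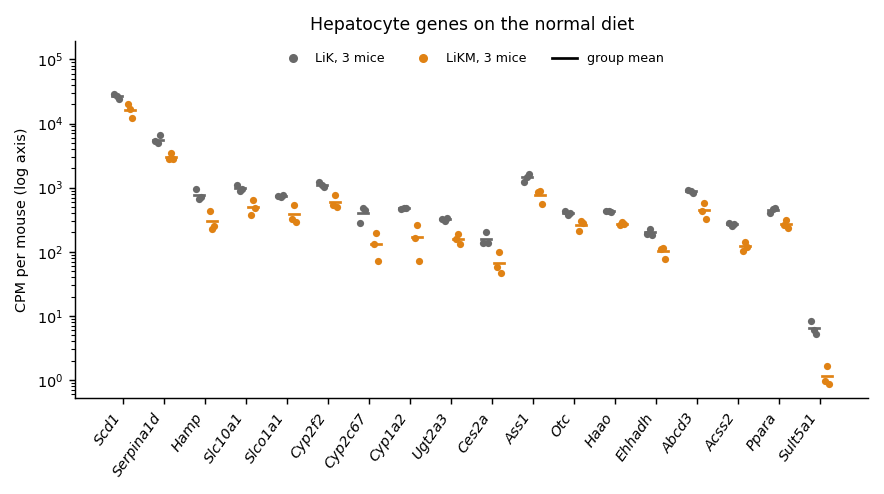
CPM of 18 hepatocyte genes in each mouse (y axis, log axis; points are mice, short lines group means). In all 18 genes, picked among those called lower, the 3 LiKM mice lie below the 3 LiK mice, as in 1187 of all 1195 such genes. The widest gap is in Sult5a1, and Scd1 is the most abundant gene drawn.

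Stress programmes were mixed. Of 25 integrated stress response genes 10 rose and 2 fell (median 0.73), beside 13.2% and 8.61% of all tested genes. However, the count of rises was 2 without LiK mouse 1 or LiKM mouse 3, 3 without LiK mouse 3 and 5 without LiK mouse 2 or LiKM mouse 1. Falls numbered 0 or 1 when any 1 of 9 of the 12 libraries was left out. The lipoprotein receptor Vldlr had 0.775, 0.849 and 0.754 CPM in LiK and 2.34, 3.8 and 4.3 CPM in LiKM mice (log2 fold change 2.11, SE 0.48, 4.31-fold higher, edgeR adjusted p = 0.0103). Atf4 had 80.6, 77.4 and 73.4 CPM in LiK and 71.6, 74.5 and 112 CPM in LiKM mice and did not pass. Of 24 NRF2 targets 4 rose and 1 fell, beside 13.2% and 8.61% of all tested genes. Among the rises was Cbr3, a carbonyl reductase, with 0.423, 0.622 and 0.0837 CPM in LiK and 4.14, 2.47 and 4.22 CPM in LiKM mice (log2 fold change 3.15, SE 0.52, 8.88-fold higher, edgeR adjusted p = 0.00207). The count of rises was 2 without LiK mouse 1 or LiKM mouse 1. The fall was lost when any 1 of 8 of the 12 libraries was left out. Nqo1 had 2.68, 1.87 and 2.34 CPM in LiK and 6.96, 2.32 and 3.9 CPM in LiKM mice and did not pass. Among immediate early and heat shock genes 7 of 24 rose, and the count was 2 without LiK mouse 1, 3 without LiK mouse 3 or LiKM mouse 3 and 4 without LiK mouse 2 on ACR. Klf6, induced in injured liver, had 7.33, 7.92 and 7.29 CPM in LiK and 25.3, 21.6 and 37.5 CPM in LiKM mice (log2 fold change 1.90, SE 0.23, 3.73-fold higher, edgeR adjusted p = 0.000397). Of 24 metal handling genes 6 fell and 1 rose (median -0.2), beside 8.61% and 13.2% of all tested genes. With library size alone 1 fell and 6 rose. The gene that rose with TMM factors was the zinc importer Slc39a4, with 22.1, 14.1 and 12.3 CPM in LiK and 60.8, 47.1 and 63.3 CPM in LiKM mice (log2 fold change 1.82, SE 0.20, 3.52-fold higher, edgeR adjusted p = 0.000262). The metallothionein Mt1 had 6.97, 8.54 and 12.2 CPM in LiK and 95.6, 11.7 and 16.4 CPM in LiKM mice, with LiKM mouse 1 highest, and did not pass. In the retinoid list, which bears on the drug given to the other mice, 2 of 25 genes rose and 3 fell, beside 13.2% and 8.61% of all tested genes. Falls numbered 1 without LiK mouse 1. The retinol saturase Retsat had 182, 274 and 155 CPM in LiK and 90.8, 116 and 76.9 CPM in LiKM mice (log2 fold change -1.11, SE 0.23, 2.15-fold lower, edgeR adjusted p = 0.00681). The receptor Rarg had 4.58, 5.15 and 7.03 CPM in LiK and 11.2, 10.1 and 13.7 CPM in LiKM mice (log2 fold change 1.07, SE 0.23, 2.09-fold higher, edgeR adjusted p = 0.00838).

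The same genes were then read in the mice on ACR, which are other animals but share the fit's estimate of spread. There 771 genes were higher (5.55%) and 588 lower (4.24%) in LiKM than in LiK. Of the 1836 genes that rose on the normal diet 527 (28.7%) also passed as higher on ACR, which is 68.4% of the 771, and 93.6% had a difference of the same sign. Of the 1195 that fell 292 (24.4%) also passed as lower, which is 49.7% of the 588, and 91.8% had the same sign. Among duct genes, Cftr had a log2 fold change of 6.44 on the normal diet and 3.52 on ACR, Cd24a 5.01 and 2.29, and Krt19 4.30 and 2.15, and all of them passed on both diets. Among p53 targets, Cdkn1a had 2.93 and 5.27 and Psrc1 had 5.01 and 4.75, which also passed on both. Ppara had -0.75 and -0.99 and Slc10a1 -0.98 and -0.87, again passing on both. Several hepatocyte genes that fell on the normal diet did not pass on ACR. For these the log2 fold changes were -0.89 and -0.0027 for Cyp2f2, -0.60 and -0.06 for Otc, and -0.89 and -0.09 for Serpina1d. Igf1r, with 1.84 and 0.46, and Agrn, with 1.28 and 0.19, passed on the normal diet and not on ACR.

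A direct test of the difference between the strain effects on the 2 diets passed in edgeR for 1 gene (0.0072% of tested genes), Mreg, so the other genes were not shown to differ between diets. At an unadjusted p under 0.05 there were 1593 genes, and DESeq2 called 160. The edgeR count was 0 without LiK mouse 1, 2 or 3, without LiK mouse 1, 2 or 3 on ACR or without LiKM mouse 2 on ACR. It was 6 without LiKM mouse 1, 13 without LiKM mouse 1 on ACR and 20 without LiKM mouse 3 on ACR. Mreg (chromosome 1, 72159442 to 72212307) encodes melanoregulin, which acts in the transport of melanosomes and lysosomes, and is named for this result after its values were seen. On the normal diet it had 29.7, 33 and 29 CPM in LiK and 16.6, 20.7 and 11.9 CPM in LiKM mice (log2 fold change -0.90, SE 0.20, 1.86-fold lower, edgeR adjusted p = 0.00949). On ACR it was higher in LiKM (log2 1.61, edgeR adjusted p = 0.00259), with 10.8 ± 0.793 CPM in LiK and 33 ± 7.53 CPM in LiKM mice (mean ± SD, n = 3). The difference of the strain effects was 2.51 on the log2 scale (edgeR adjusted p = 0.0201). Another 4 genes passed in opposite directions on the 2 diets. Leap2, an antimicrobial peptide of liver, fell on the normal diet (log2 -0.60) and rose on ACR (0.62), and Ttc3, Pik3ap1 and Cpeb1 did the reverse (log2 0.35 and -0.41, 0.64 and -0.85, and 1.39 and -0.84). The normal diet call ended without LiK mouse 1 for Leap2. It ended without LiK mouse 1, 2 or 3 or LiKM mouse 2 for Ttc3 and without LiK mouse 2 or 3 or LiKM mouse 1 or 3 for Pik3ap1. Their differences did not pass the direct test (edgeR adjusted p = 0.0633 to 0.0906).

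**Figure D5:**
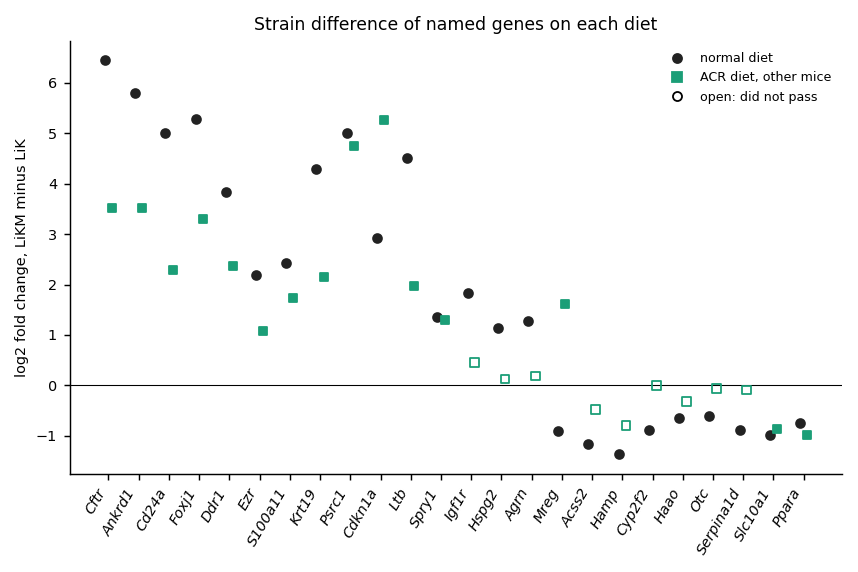
Log2 fold change of LiKM over LiK for 24 named genes (y axis) on the normal diet (circles) and in other mice on ACR (squares); filled symbols passed edgeR's test and open symbols did not. Duct genes and p53 targets lie above 0 on both diets, and Mreg lies at -0.90 on the normal diet and 1.61 on ACR.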

How the data were processed

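RNA-seq of liver from 12 mice was deposited by the authors as a table of expected counts per gene symbol, not all whole numbers. Per the submitters' processing notes featureCounts 2.0.0 and genome build mm10 were used, and per the labels' protocols the kit was a stranded poly(A) kit. The sources used here do not give the aligner, annotation, strand setting or handling of shared reads, so values of near-identical and overlapping genes are uncertain. The deposited values were rounded. Genes were filtered with filterByExpr, leaving 13880 of 24421, scaled by TMM and tested with edgeR 4.0.16 in R 4.3.3 (robust quasi-likelihood fit of all 12 libraries, 1 coefficient per group, Benjamini-Hochberg adjustment over all tested genes, threshold 0.05). Groups came from the sample titles, which give separate mice. Library totals were 10124813 to 18647156, so genes of few counts are measured imprecisely. The scripts were tested on simulated data. DESeq2 1.42.0 and limma 3.58.1 served as alternatives.

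The comparison, gene lists and genes were chosen with earlier results of these data known. A rule took from each list its first 3 members, the 5 with the smallest p in each direction and all in a direction with 3 or fewer, besides the 12 largest rises and falls with at least 5 CPM and no overlap, the 10 largest differences of CPM, 6 genes with at most 3 LiK counts and 6 set genes, 569 in all. The text gives part of these, picked after their values were seen and mostly among calls kept when any 1 library was left out. A few genes the rule picks are not reported here. Amotl2, Mreg, Leap2, Ttc3, Pik3ap1 and Cpeb1 were added after seeing values.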

Additional observations from a re-analysis of the deposited data

Results flagged for a closer look

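Mreg was the gene for which the strain effects on the 2 diets differed by the test of the difference itself. The effect of LiKM against LiK was -0.90 on the log2 scale on the normal diet and 1.61 on ACR, a difference of 2.51 (edgeR adjusted p = 0.0201), with 3 mice per group. No group of 3 mice was searched for single outlying libraries.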

How the results depend on the processing

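With RLE factors, DESeq2, limma voom, no filter on low counts or the identifier prefix as a term, the counts of genes called on the normal diet stayed within 1.5 times. With library size alone 4831 genes were called, 4716 higher and 115 lower, and of the 3031 called with TMM factors 64.4% were among them. Upper quartile factors gave 630 lower genes, and a fit of only the 6 normal diet libraries gave 536. Leaving out 1 library gave 1658 to 3384 calls, 1106 to 1978 higher and 552 to 1406 lower. In mice on ACR DESeq2 called 2150 genes, a fit without the 3 libraries set apart by clock genes (LiKM mouse 3 on the normal diet, LiKM mice 2 and 3 on ACR) called 555, and leaving out 1 library gave 312 to 1695. The difference between diets was called for 16 genes with library size alone, 160 with DESeq2, 2 without the filter, 0 with the prefix as a term, 15 without those 3 libraries and 0 to 20 when 1 was left out. The replicate numbers share only a name (correlations of same-numbered mice 0.03, 0.08 and 0, all below 0.1). With the replicate block over all 12 libraries 3006 genes were called and the difference between diets passed for 2. With the replicate block in only the 6 libraries the counts were 1420 in all, 1176 higher and 244 lower. Of 202 genes named, Esrp2 was the 1 gene that changed sign while called in either fit, at 0.12 with library size alone. Sign changes of genes called in neither fit were not counted. Gpc3 and Trp53 lost their calls with limma voom, and Cd4, Ctgf, Esrp2, Klb, Lama3, Lyve1, Pik3ap1 and Scd1 with the prefix as a term. With only the 6 normal diet libraries Anxa11, C1qc, Cd4, Cyp1a2, Esrp2, Gls2, Klb, Lama3, Otc, Pik3ap1, Scd1, Tfr2 and Trp53 lost theirs. The causes were not tested. At this depth genes under a few counts per library cannot be ranked by fold change.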
